A study of Mus musculus with 8 samples.

Results

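Fatty acid oxidation enzymes and targets of the nuclear receptor PPARα were followed in the first stretch of small intestine of mice lacking the transcription factor Pdx1 in the gut epithelium. The set had 32 genes, listed by symbol: enzymes and carriers of fatty acid oxidation, the receptor gene Ppara and genes known to respond to it. A probe set counted as a member when the platform annotation gave it a single gene symbol and that symbol was on the list. This found 53 probe sets for 30 of the 32 genes, out of 45037 probe sets tested and 18193 genes with a probe set of their own. Cyp4a10 and Ucp2 had no such probe set and were not analysed here.

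The knockout mice were Pdx1flox/flox;VilCre (KO): both Pdx1 alleles carried loxP sites around exon 2, which encodes the homeodomain, and Cre was driven by a 12.4 kb villin 1 promoter fragment. The controls were Pdx1flox/flox (Ctrl), so they carried the same floxed alleles, and their genotype label names no Cre. All were males aged 6 months, labelled as brothers of a litter and kept on a diet with 4.5% fat, with 4 mice in each group. RNA came from the 5 cm of gut next to the pylorus, as whole tissue with 1 mouse on each array, and the series asked which transcripts of the mature duodenum depend on Pdx1. In such tissue, fewer cells of a type and less RNA per cell cannot be told apart.

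Fatty acids are burned in the mitochondrial matrix, where they arrive bound to carnitine and are shortened by repeated rounds of the same reactions. Very long chains are first shortened in peroxisomes. PPARα binds fatty acids, pairs with the receptor RXR on DNA and raises transcription of many of these enzymes, in the gut as in the liver. Absorptive enterocytes both export dietary fat and oxidise part of it.

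The labels were checked on Pdx1, whose brighter probe set had a mean log2 value of 5.93 in the knockout and 8.52 in the control, with no overlap (adjusted p = 4.16e-04). Nothing in the sources used here says whether its probes lie in the deleted exon. Array medians lay between 5.23 and 5.27, and Pearson's r between arrays lay between 0.99 and 0.996. Markers of the other cells in the tissue held 0 changed genes. Of 7 measured enterocyte markers 6 had higher means in the knockout; their mean level ran from 13.52 to 13.77 in the control and from 13.70 to 13.88 in the knockout. Of 6 smooth muscle markers all 6 were higher, with mean levels of 10.05 to 10.27 and 10.14 to 10.63. All measured exocrine pancreas (4), gastric (4) and hepatocyte (3) markers had lower means in the knockout. Among these the hepatocyte marker Ttr differed most, by -0.72, with separated groups (adjusted p = 0.625 in limma). Crypt, adipocyte and macrophage markers went in both directions. The mean level over the 4 measured exocrine pancreas markers lay between 12.01 and 14.51 in the control samples and between 13.10 and 14.17 in the knockout samples, so pancreatic transcripts were abundant in every sample. The adipocyte marker Adipoq read 6.76 in knockout 1 and between 3.39 and 4.75 in the other samples.

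No transcript of the set passed the test between knockout and control. Of the 53 member probe sets, 0 rose and 0 fell at an adjusted p under 0.05 in limma, where 0.0422% of all probe sets passed, 0.00444% higher and 0.0377% lower in the knockout. Without adjustment 4 had a p under 0.05, against 7.13% of all probe sets. The same 4, from Acot12 and Vnn1, were the ones in which every knockout mouse lay above every control mouse. That is 7.55% of the member probe sets, against 4.43% of all probe sets with separated groups in either direction and 2.1% with the knockout higher. With the knockout lower 0 were separated, against 2.33% of all. The 4 separated probe sets all had a mean of at least 8. Of the 9158 probe sets at that level, 4.73% were separated, 336 with the knockout higher and 97 lower. Without control 2 and knockout 3, a choice made after the data were seen, 0 still passed and 7 were separated, or 13.2% against 11% of all, 2 of them lower.

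Taken by the probe set with the highest mean, 14 of the 30 genes had a higher mean in the knockout and 16 a lower one, and 51.6% of all genes had a higher mean. The members are bright: 25 of the 30 had a mean of at least 8 over the 8 mice. Of all genes at that level, 63.2% had a higher mean in the knockout, with a median difference of 0.0295. Signs near 0 turned with the scaling: those of Etfa and Hadhb with repeated quantile normalization, and those of Hadha and Decr1 with array medians set equal. The median difference over the members was -0.00531 on the log2 scale and that over all genes was 0.00458. Differences ran from -0.35 for Acot1 to 0.63 for Acot12, and 24 of the 30 lay within 0.2 of 0. So did 16480 of all 18193 genes and 5230 of the 5785 with a mean of at least 8, both larger shares. The data set bounds as well, by 95% intervals of the difference that were not adjusted for the number of genes. They lay inside ±1 for 28 of the 30 genes and inside ±0.5 for 22. Over all 18193 genes these counts were 17951 and 16765, both larger shares. The median half-width of the interval was 0.228 over the members and 0.196 over all genes. Among the members, the exceptions at ±1 were Acaa1b and Pdk4, which varied most between mice.

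**Figure D1:**
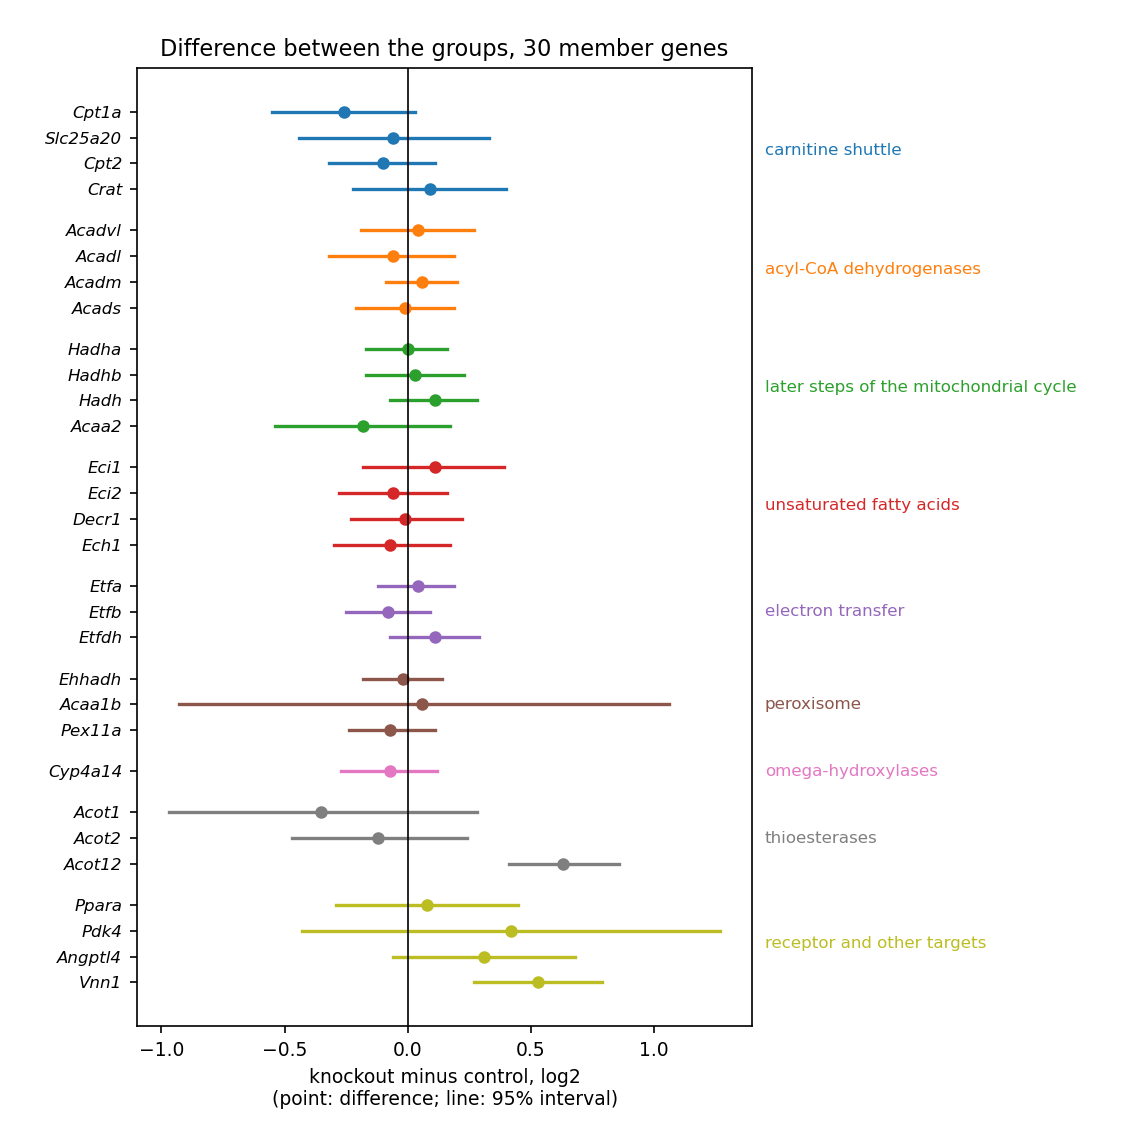
Knockout minus control on the log2 scale for each of the 30 genes, with points for the difference of the means (4 mice in each group) and lines for the 95% interval, coloured by role. The intervals of Acot12 (0.41 to 0.86) and Vnn1 (0.27 to 0.79) lie above 0, and all others cross 0.

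Acot12 and Vnn1 were the members with the smallest p. Acot12 encodes a cytosolic thioesterase that splits acetyl-CoA into acetate and free coenzyme A. On its brighter probe set the controls read 10.27, 9.76, 10.09 and 9.96 on the log2 scale and the knockouts 10.66, 10.66, 10.59 and 10.70. The groups did not overlap, and the knockouts lay closer together (SD 0.0485) than the controls (SD 0.216). The difference was 0.63 ± 0.101 (SE, n = 4 each), 1.55-fold, with an adjusted p of 0.121 in limma. Its second probe set read 8.32, 7.73, 8.22 and 8.01 in the controls and 8.89, 8.78, 8.59 and 8.89 in the knockouts, a difference of 0.72 (adjusted p = 0.219). Both probe sets thus put control 2 lowest. The remaining probe set of Acot12, at a mean of 3.92 near the bottom of the scale, had 0.18 and overlapping groups. In no alternative did Acot12 pass: its adjusted p ran from 0.0546 without control 1 to 0.473 with values under 5 set to 5.

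Vnn1 encodes vanin-1, a membrane-bound pantetheinase that releases cysteamine and pantothenic acid, a building block of coenzyme A, and is a known PPARα target. The controls read 9.43, 9.14, 9.31 and 9.19 and the knockouts 10.06, 9.50, 9.76 and 9.87. Knockout 2 was the nearest to the controls, 0.07 above control 1. The difference was 0.53 ± 0.117 (SE, n = 4 each), 1.44-fold, with an adjusted p of 0.423. On its second probe set the control values were 8.32, 8.05, 8.34 and 8.18 and the knockout values 9.16, 8.55, 8.74 and 8.80, a difference of 0.59 (adjusted p = 0.393). Both Vnn1 probe sets had knockout 1 highest and control 2 lowest. Enterocyte markers had higher means in the knockout too (median difference 0.18 over 7 genes); their part in the Acot12 and Vnn1 values was not tested.

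**Figure D2:**
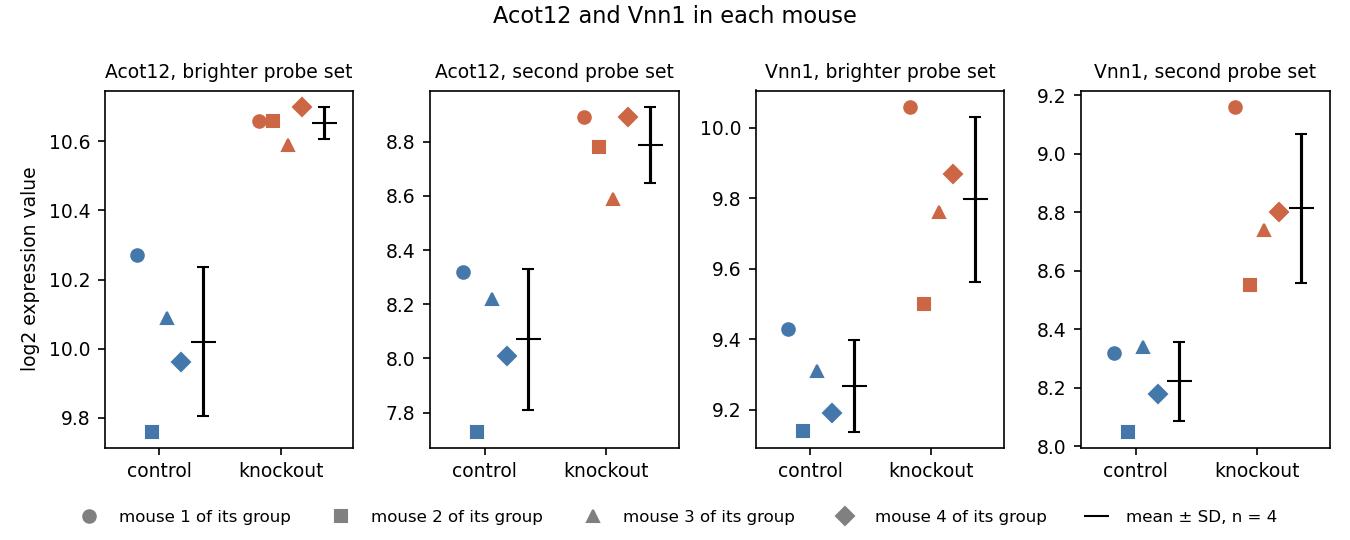
Log2 expression values of both bright probe sets of Acot12 and of Vnn1 in the 4 control and 4 knockout mice, with symbols for the mouse number within its group and bars for the mean ± SD. In each panel the lowest knockout lies above the highest control, by the least on the brighter Vnn1 probe set (9.50 against 9.43).

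Promoter sequences in RefSeq (GRCm38.p6) were matched by symbol for 25 of the 32 genes, as 250 bases before the transcript start and 50 after it. They were searched on both strands for AGGTCA, the single site of nuclear receptors, for the PPARα and RXR element, which is that site repeated directly after a spacer of 1 base, and for TAATTA, a core bound by many homeodomain proteins. Over all 32851 promoters of that length, 0.0396% held the full element, 16.3% the single site and 5.29% TAATTA. Among the 25 member promoters 0 held the full element, 4 the single site (Acadm, Acadvl, Acot12 and Cpt1a), and 1, that of Acaa1b, the homeodomain core. Such a match is only a match of letters in this window. Acot12 is shown as the member with the smallest p, Acaa1b as the one that varied most between mice, Cpt1a as the member with the next smallest p that had a matched promoter (Vnn1 had none), and Acadm, a classical PPARα target, as one of the steadiest. Each runs 5′ to 3′ along the gene's strand, with capitals for the single site, which reads TGACCT where it lies on the opposite strand, or for TAATTA.
Acot12, chr13:91741271-91741570, strand +: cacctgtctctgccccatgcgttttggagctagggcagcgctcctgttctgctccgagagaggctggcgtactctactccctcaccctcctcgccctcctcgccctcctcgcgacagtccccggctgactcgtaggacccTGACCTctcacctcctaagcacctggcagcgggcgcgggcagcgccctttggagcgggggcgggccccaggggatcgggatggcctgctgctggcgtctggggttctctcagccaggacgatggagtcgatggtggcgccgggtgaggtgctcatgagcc
Acaa1b, chr9:119157044-119157343, strand -: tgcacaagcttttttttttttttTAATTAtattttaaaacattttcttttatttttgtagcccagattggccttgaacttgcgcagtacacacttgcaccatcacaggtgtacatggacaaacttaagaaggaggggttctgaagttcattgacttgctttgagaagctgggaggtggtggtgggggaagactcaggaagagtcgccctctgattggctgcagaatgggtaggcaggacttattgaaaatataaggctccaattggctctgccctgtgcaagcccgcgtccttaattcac
Cpt1a, chr19:3323051-3323350, strand +: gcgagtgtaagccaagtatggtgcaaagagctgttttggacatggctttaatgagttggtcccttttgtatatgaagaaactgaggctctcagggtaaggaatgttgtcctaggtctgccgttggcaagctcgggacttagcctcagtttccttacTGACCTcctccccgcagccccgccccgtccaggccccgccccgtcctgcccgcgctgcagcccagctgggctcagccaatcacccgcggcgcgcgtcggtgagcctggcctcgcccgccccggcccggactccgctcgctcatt
Acadm, chr3:153944594-153944893, strand -: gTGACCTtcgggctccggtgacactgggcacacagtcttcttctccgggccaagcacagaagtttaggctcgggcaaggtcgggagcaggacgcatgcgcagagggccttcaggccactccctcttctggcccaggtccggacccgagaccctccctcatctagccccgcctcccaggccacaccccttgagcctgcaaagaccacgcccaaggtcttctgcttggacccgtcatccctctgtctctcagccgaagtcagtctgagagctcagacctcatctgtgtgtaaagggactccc
In Acot12 the single site starts 110 bases before the transcript start, in Cpt1a 94 bases and in Acadm 249 bases before it. TAATTA in Acaa1b starts 227 bases before the start.

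The carnitine shuttle brings long-chain fatty acids into mitochondria. Cpt1a, the enzyme that joins them to carnitine at the outer membrane and sets the pace of oxidation, read 10.30, 10.34, 10.10 and 10.78 in the controls and 10.19, 10.17, 10.17 and 9.95 in the knockouts. Control 4 stood highest and knockout 4 lowest, and control 3 lay among the knockouts. The difference was -0.26 (95% interval -0.55 to 0.03; adjusted p = 0.735). Its dimmer probe sets had -0.14 and 0.06, so they did not share a direction. Without control 4 the difference on the brightest probe set was -0.12 (adjusted p = 0.814; 0.678 to 1 over its alternatives).

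Slc25a20, the carrier that swaps acylcarnitine for carnitine across the inner membrane, read 10.07, 10.26, 9.67 and 10.63 in the controls. Its knockout values were 10.10, 10.09, 9.93 and 10.29, all inside the control range. The difference was -0.06 (adjusted p = 0.967). Cpt2, which hands the fatty acid back to coenzyme A in the matrix, read 11.40, 11.22, 11.16 and 11.61 in the controls and 11.29, 11.28, 11.17 and 11.24 in the knockouts. Its knockouts again fell inside the control range, with a difference of -0.10 (adjusted p = 0.862). Crat, which joins carnitine to acetyl groups, had 0.09 (interval -0.22 to 0.40).

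The acyl-CoA dehydrogenases start each round of oxidation, on very long (Acadvl), long (Acadl), medium (Acadm) and short (Acads) chains. They were well above the array medians, with means of 11.29, 11.66, 11.35 and 9.70. Their differences were 0.04, -0.06, 0.06 and -0.01, and none of their intervals reached beyond -0.32 or 0.27. Acadm was the steadiest of the 30 genes: its controls read 11.33, 11.27, 11.26 and 11.41 and its knockouts 11.45, 11.34, 11.32 and 11.40 (adjusted p = 0.890). All 8 mice lay within 0.19 of each other.

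The later steps of the round are run by the trifunctional protein (Hadha and Hadhb), by the hydroxyacyl-CoA dehydrogenase Hadh and by the thiolase Acaa2. Hadha had a difference of 0.00 and Hadhb of 0.03 on their brightest probe sets. Hadh had the highest level of the set, with controls at 13.79, 13.66, 13.78 and 13.83 and knockouts at 14.00, 13.83, 13.72 and 13.94. Its groups overlapped (0.11; adjusted p = 0.811). Acaa2 read 11.51, 11.17, 11.49 and 11.81 in the controls and 11.48, 11.45, 10.86 and 11.45 in the knockouts. Here knockout 3 stood 0.59 below the other knockouts, which lay inside the control range. The 3 probe sets of Acaa2 had -0.18, -0.17 and -0.16 (adjusted p = 0.848 for the brightest). On the brightest the difference was -0.03 without knockout 3, -0.08 without control 4 and -0.29 without control 2.

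Enzymes for unsaturated fatty acids shift double bonds (Eci1, Eci2 and Ech1) or reduce them (Decr1). Their differences were 0.11, -0.06, -0.07 and -0.01 in that order, with intervals between -0.30 and 0.39. The electron transfer flavoprotein (Etfa and Etfb) and its dehydrogenase Etfdh pass electrons from the first step of oxidation to ubiquinone. Etfdh read 10.23, 10.21, 10.10 and 10.40 in the controls and 10.42, 10.30, 10.24 and 10.42 in the knockouts, and its groups overlapped (0.11; adjusted p = 0.807). Etfb read 10.95, 11.05, 11.09 and 11.14 in the controls and 11.05, 11.02, 10.82 and 11.02 in the knockouts. Knockout 3 was its lowest mouse, and the groups overlapped (-0.08; adjusted p = 0.863). Etfa had 0.04 and an SD within groups of 0.0782.

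In peroxisomes, Ehhadh runs the middle steps of oxidation, Acaa1b the thiolase step, and Pex11a helps the organelle to divide. Ehhadh had -0.02 and Pex11a -0.07, with SDs within groups of 0.0859 and 0.102. Acaa1b differed from both. Its controls read 9.69, 8.53, 9.48 and 10.22 and its knockouts 10.04, 9.79, 8.18 and 10.17. Control 2 and knockout 3 were low and the other 6 mice lay between 9.48 and 10.22, so the low mice came 1 from each group. The difference of the means was 0.06, with an interval from -0.93 to 1.06 (adjusted p = 0.986), so these 8 mice leave room for a change of about that size in either direction.

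Cyp4a14 encodes an omega-hydroxylase that PPARα raises strongly in liver. Its 1 probe set read between 3.49 and 3.83 in all 8 mice, below the array medians, with a difference of -0.07. No detection calls were used here, so this level may be background.

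The thioesterases Acot1 and Acot2 release fatty acids from coenzyme A in the cytosol and in mitochondria. They are near-identical neighbours in one gene cluster, so their probe sets may read each other's transcripts. Acot1 read 6.04, 5.91, 6.11 and 7.07 in the controls and 6.24, 6.24, 5.22 and 6.04 in the knockouts. Control 4 was highest and knockout 3 lowest, with the other 6 mice between 5.91 and 6.24. The difference was -0.35 (interval -0.97 to 0.28; adjusted p = 0.830). It was -0.08 without control 4 and -0.11 without knockout 3. Acot2 had the same mice at its ends, 8.01 in control 4 and 7.10 in knockout 3, and a difference of -0.12.

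Ppara itself read 8.30, 8.10, 8.21 and 8.53 in the controls and 8.57, 8.32, 7.86 and 8.71 in the knockouts. The knockout range enclosed the control range, and knockout 3 was lowest. The difference was 0.08 (interval -0.29 to 0.45; adjusted p = 0.944), and its other probe sets had -0.11 and -0.08. Transcript levels do not show how active the receptor is.

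Pdk4 and Angptl4 are known PPARα targets: Pdk4 blocks the entry of pyruvate into the citric acid cycle, and Angptl4 is a secreted inhibitor of lipoprotein lipase. Pdk4 read 6.70, 6.01, 6.02 and 7.18 in the controls and 7.19, 6.86, 5.81 and 7.74 in the knockouts. Knockout 4 was highest and knockout 3 lowest of all 8 mice, 1.93 apart. The difference was 0.42 (interval -0.43 to 1.27; adjusted p = 0.855). Angptl4 read 6.94, 6.98, 6.79 and 7.57 in the controls and 7.47, 7.50, 7.04 and 7.51 in the knockouts. Control 4 was its highest mouse and lay above all knockouts, and knockout 3 was the lowest knockout. The difference was 0.31 (interval -0.06 to 0.68; adjusted p = 0.741). The Angptl4 value was 0.48 without control 4 (adjusted p = 0.630; 0.626 to 1 over its alternatives). That of Pdk4 was 0.79 without knockout 3, 0.66 without control 4, 0.27 without control 2 or control 3 and 0.14 without knockout 4, and its adjusted p over the alternatives ran from 0.750 to 1.

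**Figure D3:**
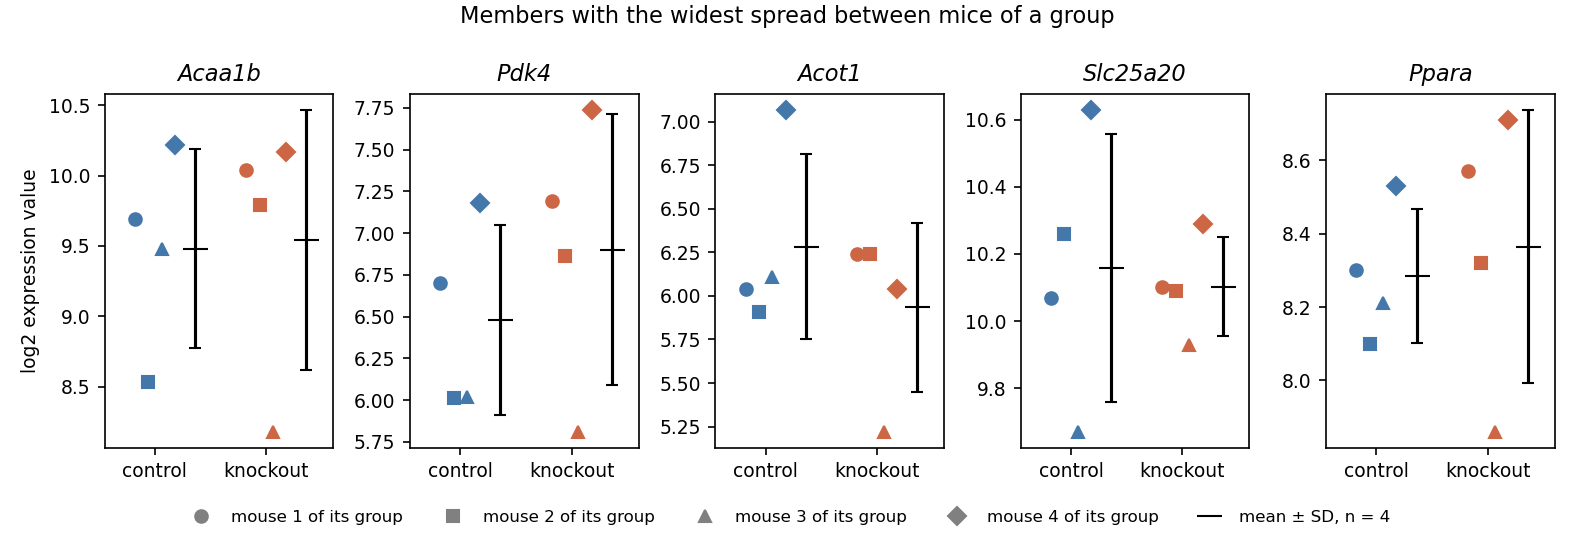
Log2 expression values of Acaa1b, Pdk4, Acot1, Slc25a20 and Ppara in the 4 control and 4 knockout mice, with symbols for the mouse number within its group and bars for the mean ± SD. Knockout 3 is the lowest knockout and control 4 the highest control in all 5 panels, and the groups overlap in each.

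The spread between mice of a group was wider than the difference between groups for most members. The SD within groups had a median of 0.159 over the 30 genes and 0.126 over all genes. Compared with all probe sets of a similar level (steps of 1 on the log2 scale), 23 of the 30 genes, 76.7%, had an SD above the median, against 48.5% of all genes. Acaa1b (0.823), Pdk4 (0.702) and Acot1 (0.511) exceeded the 95th percentile for their level, which is 10% of the members against 5.08% of all genes. At the other end were Acadm (0.0644), Etfa (0.0782) and Ehhadh (0.0859). The genes that varied most were a peroxisomal thiolase, a kinase and a thioesterase. They are known PPARα targets, but so is the steady Acadm, and the set was listed in part for such genes. Members that share a source mouse are not independent of each other.

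**Figure D4:**
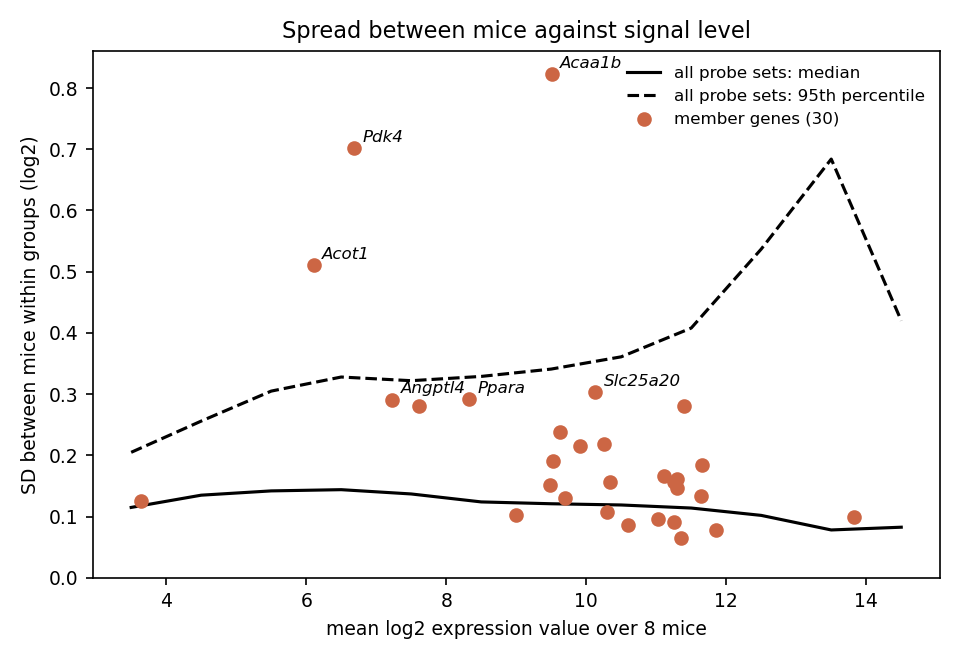
SD between mice within groups (log2) against the mean log2 value over the 8 mice for the 30 genes (points), with the median and the 95th percentile over all probe sets in steps of 1 on the log2 scale (lines). Acaa1b, Pdk4 and Acot1 lie above the dashed line, and 23 of the 30 points lie above the solid line.

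The same mice were at the ends for many members. Control 4 was the highest control in 25 of 30 genes, 83.3%, against 29.3% of all genes. It was the highest of all 8 mice in 17, 56.7% against 16.5%. Knockout 3 was the lowest knockout in 23 of 30 genes, 76.7%, against 32.3% of all genes. It was the lowest of all 8 in 13, 43.3% against 18.7%. Control 2 was the lowest control in 15 genes, 50% against 21.9%. Control 3 was the lowest control in 12, 40% against 30.5%, which is nearer to the share over all genes. Averaged over the 30 genes, the deviation from each gene's mean was 0.21 in control 4, 0.14 in knockouts 1 and 4, 0.04 in knockout 2, -0.02 in control 1, -0.11 in control 3, -0.16 in control 2 and -0.24 in knockout 3. The mice with high and low values thus came from both groups. Over all genes the same averages lay between -0.02 and 0.01, and over genes with a mean of at least 8 between -0.05 and 0.02. The 25 members at that level had 0.17 in control 4 and -0.18 in knockout 3. Acot12 and Vnn1 followed this order only in part. On their bright probe sets control 2 was the lowest control. The lowest knockout was knockout 3 for Acot12 and knockout 2 for Vnn1. Control 4 was not the highest control in either, and all knockouts, knockout 3 included, were above all controls.

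Some marker lists also set these mice apart. Gastric markers were highest of all 8 mice in control 2 (11.66), with the others between 10.66 and 11.16. Mean enterocyte marker levels were lowest in control 2 (13.52) among controls and in knockout 3 (13.70) among knockouts. Control 4 stood at 13.67, below control 1 (13.76) and control 3 (13.77). The widest gaps were in Lct, which read 12.28 in knockout 3 against 12.95 in the nearest knockout. Fabp2, Apoa1, Apoa4 and Alpi were also lowest in control 2 and knockout 3 within their groups. Vil1 and Anpep were not: control 4 was their lowest control, and knockout 3 their highest of all 8 mice (12.87 and 13.93). Exocrine pancreas markers were highest in control 4 (14.51) and, among knockouts, in knockout 3 (14.17), which were at opposite ends for the members. The mean of the 3 measured hepatocyte markers followed the members at both ends. It was highest of all 8 mice in control 4 (7.20) and lowest in knockout 3 (6.29), most of it from Ttr (9.85 and 7.87). Alb lay between 5.24 and 5.64 in all mice, and Apoh was highest in knockout 4 (6.26). The mean of the macrophage markers was also highest among controls in control 4 (8.99) and lowest among knockouts in knockout 3 (8.76). Of its genes only Csf1r had both. Adgre1 was highest among controls in control 3 (7.07), and Cd68 (6.78) and Lyz2 (11.07) were lowest among knockouts in knockout 1. The adipocyte list did not follow the members: its mean was highest among controls in control 3 (6.39) and lowest among knockouts in knockout 2 (6.00). Its marker Fabp4 read 9.14 in control 4 and 8.17 in knockout 3, but also 9.14 in knockout 1. Across all probe sets, the deviations of control 2 and knockout 3 from their group means correlated with each other (r = 0.597, over probe sets, which are not replicates). The part of these in the members' values was not tested.

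**Figure D5:**
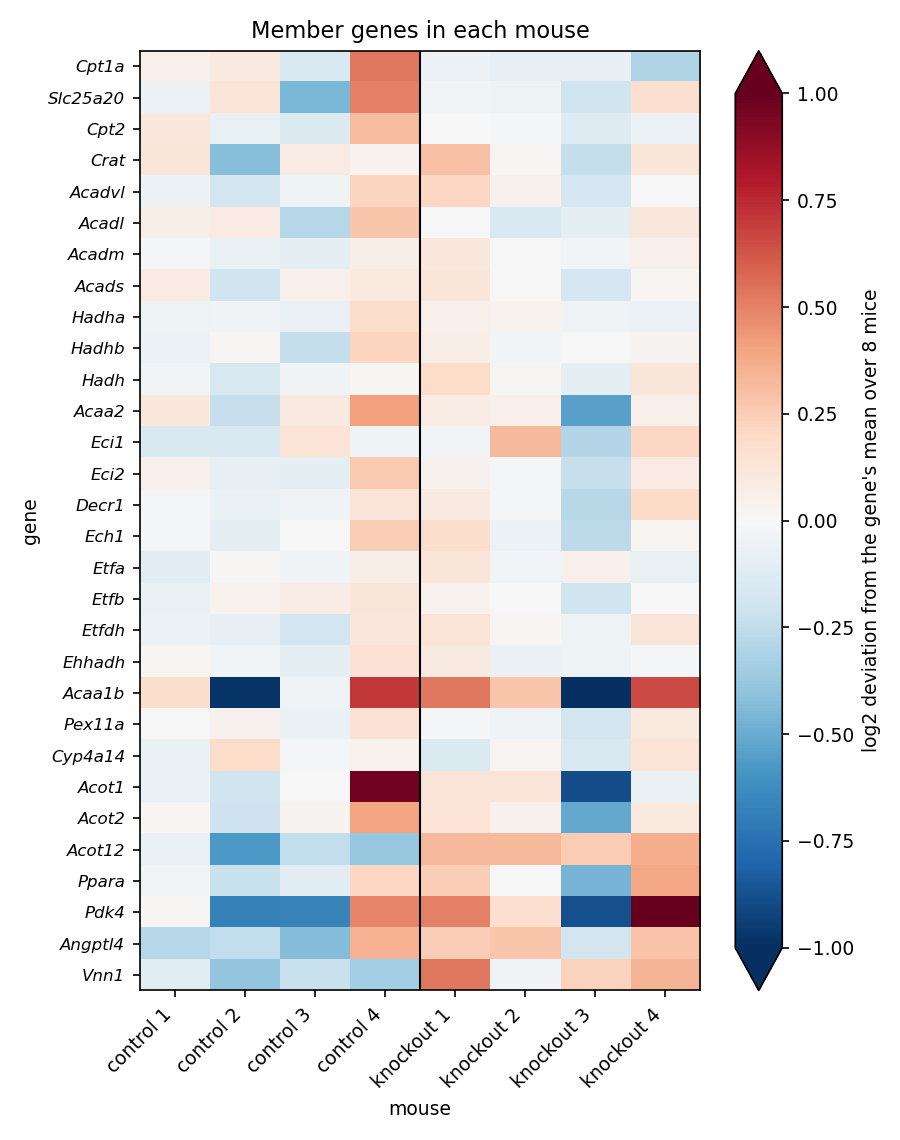
Deviation of each member gene from its own mean over the 8 mice, on the log2 scale, with a row for each of the 30 genes and a column for each mouse; colours stop at ±1. Control 4 is mostly red and knockout 3 mostly blue (mean deviations 0.21 and -0.24). In the row of Acot12 the colours divide by group. In that of Vnn1 they do so except for knockout 2, which at 9.50 lies just below the gene's mean of 9.53.

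Of 55 further genes of the pathway listed for comparison, 49 had a probe set of their own, 93 in all, and 0 changed. Without adjustment 11 had a p under 0.05, 6 higher and 5 lower, which is 11.8% against 7.13% of all probe sets. Groups were separated in 7, 5 with the knockout higher and 2 lower, which is 7.53% against 4.43% of all. The median difference over these genes was 0.0182.

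The 6 with the smallest p were Acox2, Ucp3, Acot3, Acsl5, Acox3 and Ucp1. Acox2, a peroxisomal oxidase of branched fatty acids and bile acid precursors, read 6.96, 7.32, 7.42 and 7.26 in the controls and 8.12, 7.95, 7.55 and 8.12 in the knockouts. The groups did not overlap, with knockout 3 the nearest to the controls, and the difference was 0.69 (interval 0.38 to 1.01; adjusted p = 0.351). Acsl5, which activates fatty acids in enterocytes, had 0.22, with controls from 13.48 to 13.68 and knockouts from 13.73 to 13.86. Its groups were separated as well. Acox3, a related oxidase, had 0.20, Acot3, a peroxisomal thioesterase, -0.25, and the uncoupling proteins Ucp3 and Ucp1 had -0.35 and -0.15. The probe sets of Ucp3 went in opposite directions (-0.35 and 0.25), at levels near the array medians, and Ucp1 lay below them.

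Among those further genes, Cd36 and Acot4 were picked after their values were seen. Cd36 encodes a fatty acid uptake protein that is also a PPAR target. It read 10.08, 8.96, 9.85 and 10.01 in the controls and 10.35, 9.70, 8.72 and 10.52 in the knockouts. Control 2 and knockout 3 were its lowest mice, as for Acaa1b, and the difference was 0.10 (interval -0.73 to 0.93). Acot4, a peroxisomal thioesterase, read 6.68, 5.60, 5.61 and 6.94 in the controls and 6.72, 6.33, 5.78 and 7.00 in the knockouts. For Acot4 the low mice were controls 2 and 3 and knockout 3, as for Pdk4.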

How the data were processed

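RNA of 8 mice, 4 knockout and 4 control, was measured on Affymetrix arrays from biotin-labelled cRNA, per the labels' protocols. The authors deposited a table of log2 values for 45101 probe sets; that scale was inferred from their range (2.55 to 14.83). The submitters' processing notes list Partek 6.4 without a role. How background was corrected and arrays were normalized is not given in the sources used here. With array medians this close, a common shift of every transcript would not show. The arrays give no read depth, so their number limits the precision.

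After 64 array controls were left out, 45037 probe sets were tested with lmFit and eBayes of limma 3.58.1 (R 4.3.3), knockout minus control, two-sided, with no filter, covariate or block. P-values were adjusted over all of them by Benjamini-Hochberg, and 0.05 was the threshold. Platform annotation gave 34945 probe sets a single symbol, 932 several and 9160 none; all 53 member probe sets matched RefSeq by Entrez identifier. Each gene is given by its brightest probe set on average.

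The members and lists were chosen with earlier results of these data known. All members were named; values by mouse were given for Ppara, the 12 members with the smallest p and the 6 with the largest SD within groups, and of the further pathway genes the 6 with the smallest p were named. The samples are labelled biological replicates. Their numbers do not pair them: deviations of same-numbered mice correlated at -0.0895, -0.124, -0.184 and 0.0764. Alternatives were a replicate block, other normalizations, filters, priors and weights, and each mouse left out. The scripts were tested on simulated data. Figures used matplotlib 3.10.9 in Python 3.11.15.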

Additional observations from a re-analysis of the deposited data

Results flagged for a closer look

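In 106 groups of 4 mice, control and knockout on each of the 53 member probe sets, 7 held a mouse far from the other 3 (a gap to the nearest mouse beyond Dixon's critical value). Chance gives about 1 such group in 20, and groups of the same mice are not independent. The rule was run on member probe sets only, so no share over all probe sets is given. Knockout 3 was the low mouse in 5 of them: Acaa2 read 10.86 (nearest knockout 11.45) and, on its second probe set, 10.60 (11.12), Etfb 10.82 (11.02), Acot2 7.10 (7.66) and Angptl4 7.04 (7.47). Cpt1a was low in knockout 4, at 9.95 with the nearest knockout at 10.17. Acads was low in control 2, at 9.50 with the nearest control at 9.75.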

How the results depend on the processing

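Under 17 alternatives, 1 of them added after the data were seen, 0 member probe sets and 0 of the further pathway genes' probe sets passed the test. The replicate block changed neither count (0 and 0), and Acot12 had an adjusted p of 0.248 with the block. The median difference over the members stayed between -0.0477 and 0.0571, and with single mice left out between -0.0372 and 0.0571; it moved by less than its spread between mice (SD 0.129) but changed sign within that range. Separated member probe sets numbered 4 in the other settings, 4 to 6 with single mice left out, and 7 without control 2 and knockout 3, where 11% of all probe sets were separated; fewer mice separate more easily. Of the 30 genes, 14 kept their sign in all alternatives run and 16 did not, each of the 16 with a difference of at most 0.12 in size. With single mice left out, the ranges of those that turned were -0.25 to 0.52 for Acaa1b, -0.22 to 0.10 for Slc25a20, -0.20 to 0.04 for Acot2, -0.17 to 0.02 for Acadl, -0.13 to 0.01 for Ech1, -0.11 to 0.01 for Eci2, -0.08 to 0.04 for Acads, -0.07 to 0.09 for Decr1, -0.05 to 0.03 for Ehhadh, -0.04 to 0.10 for Hadhb, -0.03 to 0.05 for Hadha, -0.03 to 0.19 for Crat, -0.03 to 0.25 for Ppara and -0.02 to 0.12 for Acadvl. Repeated quantile normalization turned Etfa to -0.01 and Hadhb to -0.03, array median centring turned Hadha to 0.01 and Decr1 to 0.00, and array weights turned Hadha to 0.01, Decr1 to 0.03 and Acads to 0.02. With values under 5 set to 5, Cyp4a14 was at 0.00. Without control 2 and knockout 3, Decr1 was at 0.06, Slc25a20 at 0.04 and Cyp4a14 at 0.02. None passed the test in any setting, and the cause was not tested. Dim members such as Cyp4a14 may be understated by background.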
